A study of Mus musculus with 6 samples.

Results

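Transcripts of 9 genes through which endothelium starts, restrains and dissolves blood clots were followed in cultured mouse lung endothelial cells. The genes were taken by symbol (Vwf, F8, F3, Thbd, Procr, Tfpi, Plat, Plau and Plaur). All 9 were present among the 53735 genes of the deposited table, and all 9 passed the filter on low values, a mean of at least 10 normalized counts, together with 15229 genes in all. The study compared primary, unpassaged and untreated cultures of cells captured with CD31 and ICAM2 beads from the lungs of mice labelled ZMPSTE24 knockout (4 libraries, knockout 1 to 4) and ZMPSTE24 wild type (2 libraries, wild type 1 and 2). Zmpste24 encodes the protease that turns prelamin A into lamin A, and the series title places the work in the context of endothelial dysfunction in Hutchinson-Gilford progeria. The labels mention 2 cohorts of mice without placing any library in either, name no strain, sex or age, and do not say that libraries came from separate animals or how many animals gave each culture. The p-values below therefore reflect library-to-library spread alone, part of which may be technical.

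Endothelium carries both sides of haemostasis. Von Willebrand factor (Vwf) tethers platelets and carries factor VIII (F8), and tissue factor (F3) starts coagulation by binding factor VIIa. Tissue factor pathway inhibitor (Tfpi) blocks that start, and thrombomodulin (Thbd) turns thrombin into an activator of the anticoagulant protein C. The endothelial protein C receptor (Procr) presents protein C to thrombin and thrombomodulin. Tissue-type and urokinase-type plasminogen activators (Plat and Plau) make plasmin, which dissolves fibrin, and the urokinase receptor (Plaur) holds urokinase at the cell surface. In the body, lung endothelium is a known site of Thbd and Procr expression, and quiescent endothelium is known for low F3.

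The libraries held 32699024 to 45613685 recovered reads. Knockout 1 and wild type 1 differed from the remaining libraries: when all tested genes but the haemostasis genes were clustered, these 2 formed a first set, and knockout 2, 3 and 4 with wild type 2 a second set. The sets were found from the values, are not given by the labels, and were known from earlier results. Zmpste24 itself had 5079, 3764, 3599 and 3720 normalized counts in knockout 1 to 4, against 5503 and 4148 in wild type 1 and 2, so these counts over the whole gene do not check the genotype labels, and "knockout" below means labelled knockout. All 12 endothelial markers were detected in every library, with summed counts of 39730 to 108087 in knockout libraries, against 58773 and 181481 in wild type libraries. Markers of other cells were present too: fibroblast markers summed to 408285 to 482425 in knockout libraries, against 425717 and 483521 in wild type libraries. Collagen genes made up most of that sum. Pdgfra had 3946 counts in knockout 1 and 5842 in wild type 1, against 34289.5 to 69228 in the second set. Lum had 555 and 359 in the same 2 libraries, against 1201 to 2616. Col1a1 went the other way, at 132850 and 173437 against 78890.5 to 109886. Macrophage and leukocyte markers reached 28965 to 47173 counts in the second set and 4229 and 5219 in the first.

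Promoter sequence is shown for 3 of the 9 genes. Procr and Plaur are shown because they followed each other most closely of all pairs of these genes, and F3 because it was the gene that did not share their difference between the library sets. Each line, read 5′ to 3′, comes from the 250 bases before the RefSeq start on GRCm38.p6. The GENCODE start used for positions elsewhere lies 100 bases earlier in Procr, so its line ends there and holds 150 bases. The lines are shown with each match to the AP-1 motif TGANTCA in capitals.
Procr: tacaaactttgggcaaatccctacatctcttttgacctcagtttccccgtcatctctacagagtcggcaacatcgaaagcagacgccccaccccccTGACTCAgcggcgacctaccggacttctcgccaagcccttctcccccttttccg
Plaur: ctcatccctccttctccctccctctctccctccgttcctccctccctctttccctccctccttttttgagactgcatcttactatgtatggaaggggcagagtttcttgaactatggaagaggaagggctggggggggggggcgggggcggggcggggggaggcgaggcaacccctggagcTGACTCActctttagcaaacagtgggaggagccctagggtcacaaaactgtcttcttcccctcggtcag
F3: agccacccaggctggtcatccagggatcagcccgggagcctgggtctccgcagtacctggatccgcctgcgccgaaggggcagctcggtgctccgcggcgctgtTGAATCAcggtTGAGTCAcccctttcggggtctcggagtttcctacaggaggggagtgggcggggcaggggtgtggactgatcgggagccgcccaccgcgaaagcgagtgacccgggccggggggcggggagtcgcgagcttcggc

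These windows lie at chr2:155750967-155751116 (Procr), chr7:24462233-24462482 (Plaur) and chr3:121723287-121723536 (F3), all on the plus strand. The table of promoters held 6 windows of 250 bases for 5 of the 9 genes: 1 each for Procr, Plaur, F3 and F8, and 2 for Tfpi. The F8 window and 1 of the Tfpi windows lie wholly inside the gene as GENCODE annotates it. TGANTCA stood in 3 of the 6 windows, against 6.75% of 32851 mouse windows of the same length. The match began 154 bases before the RefSeq start in Procr, 69 in Plaur, and 146 and 135 in F3. The motif reads alike on both strands. GGGCGG, the GC box of Sp1, was searched on both strands and did not overlap these matches; it stood in 4 of the 6 windows, those of F3, Plaur and Tfpi, against 32.7% of all. The ETS motif CCGGAAG stood in 0 of the 6, against 6.91% of windows, and TATAAA in 1, of Tfpi, against 12.4%. These matches describe the letters and show no binding.

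Transcript levels of the 9 genes spanned a wide range. Per kb of the longest annotated coding transcript, the mean over 6 libraries was highest for Thbd at 4413 ± 2981 normalized counts, followed by F3 at 3944 ± 1371 and Procr at 3190 ± 3646 (SD, n = 6). Plaur at 2236 ± 1280, Tfpi at 2054 ± 291, Plau at 2049 ± 1766 and Plat at 1406 ± 525 formed the middle (SD, n = 6). Vwf, at 222 ± 158, and F8, at 11.9 ± 4.0 normalized counts per kb, were lowest (SD, n = 6). Of the neighbours in this order, Plat exceeded Vwf and Vwf exceeded F8 in 6 of 6 libraries, and the other 6 neighbouring pairs changed places between libraries, so their order was not beyond the spread. The length used also matters: per kb of all annotated exons together, the means were 569 for Plat, 1287 for Plaur, 1359 for Tfpi and 122 for Vwf, with Plau at 2027, and Plau took rank 4 and Plaur rank 6. F8 rested on 74 to 178 reads per library, where counting error alone amounts to a coefficient of variation of up to 11.6%, while the other 8 genes had at least 811 reads in every library. By blastn against GENCODE M21 transcripts, 0 of the 9 genes had a copy elsewhere of at least 95% identity over 200 nt, and no exon of theirs overlapped another annotated gene.

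**Figure D1:**
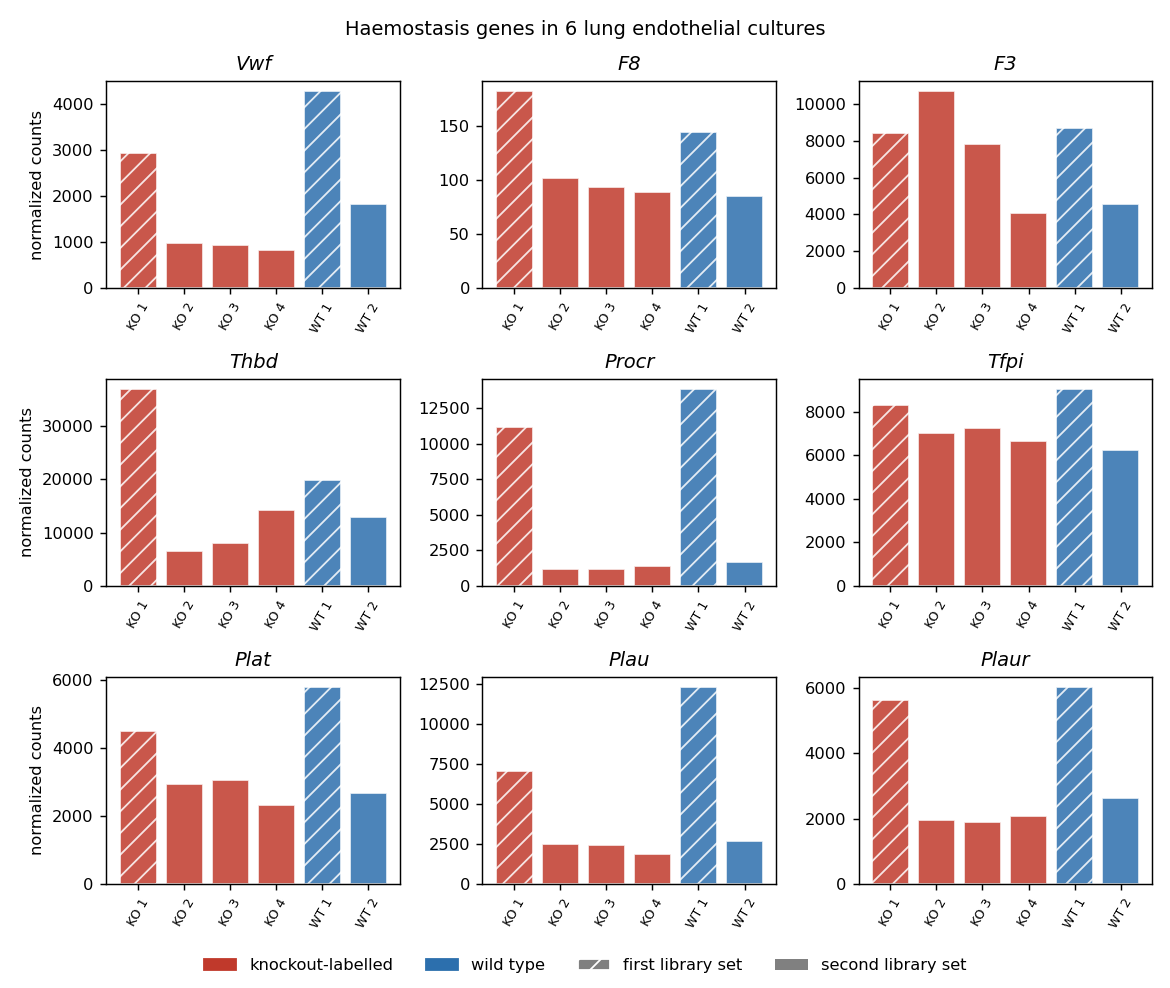
Normalized counts (y axis, from 0) of each of the 9 genes in each library, 1 bar per library, with knockout-labelled libraries in red, wild type in blue and the first library set hatched. Both hatched bars are the highest in every panel but that of F3, and Vwf is below the wild type library of its own set in all 4 knockout libraries.

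The library sets separated most of these genes before genotype came into play. In 8 of the 9, all but F3, both libraries of the first set exceeded all 4 of the second, which held for 30.7% of all tested genes. Procr showed the widest gap, with a mean in the first set 9.09 times that of the second. The ratio was 4.09 for Plau, 3.17 for Vwf and 2.73 for Plaur, and it was 1.28 for Tfpi, the most even of these 8. Because the sets were defined from the data, no test was made between them. Endothelial markers were also higher in the first set by summed counts. These were 108087 in knockout 1 and 181481 in wild type 1 against 39730 to 65519 in the second. Mesothelial markers summed to 79828 in knockout 1 and 35624 in wild type 1 against 9762 to 19107 in the second set. Smooth muscle markers summed to 208851 in knockout 1 and 221263 in wild type 1 against 55815 to 103458. Single markers did not all go with these sums. Kdr (endothelial) had 3040 counts in knockout 1, below 3497 in wild type 2. Cldn5 (endothelial) had 3539 counts in knockout 1, below 4067 in knockout 2. Wt1 and Lrrn4 (mesothelial) had 1101 and 3478 counts in wild type 1, below 1881 and 4604 in wild type 2. Des (smooth muscle) had 12115 and 6601 counts in the first set, against 6827 to 12231 in the second. In bulk RNA, fewer cells of a type and less RNA per cell cannot be told apart. The part of these markers in the results below was not tested, except where values are given.

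The main question was whether knockout cultures differed from wild type in these genes. Limma with genotype alone called 0 of the 9, where it called 0.00657% of all tested genes. At an unadjusted p under 0.05 it held 0 of the 9, against 0.939% of all tested genes, edgeR called 0 of the 9 (0.00657% of all tested genes) and DESeq2 0 (0.0463%). In none of the 9 did all 4 knockout libraries lie on 1 side of both wild type libraries, which was so for 4.68% of tested genes (2.32% lower, 2.36% higher). With a term for library set, limma (0.00657% of all genes) and edgeR (0.0131%) again called 0 of the 9, and DESeq2 called 1, Vwf, among 0.328% of all genes. With that term 4 of the 9, Vwf, Procr, Plau and Plaur, had an unadjusted limma p under 0.05, against 3.51% of all tested genes.

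Set against the wild type library of its own set, Vwf, Procr, Plau and Plaur were lower in all 4 knockout libraries, as were 10.8% of all tested genes. F8 was higher in all 4, as were 10.1% of all tested genes. F3, Thbd, Tfpi and Plat went both ways. Knockout 2, 3 and 4 share wild type 2 in this comparison, so these are not 4 separate observations. Against wild type 2 alone, the same 4 genes were lower in knockout 2, 3 and 4 (19.8% of all tested genes), and F8 and Tfpi were higher (20.7%).

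**Figure D2:**
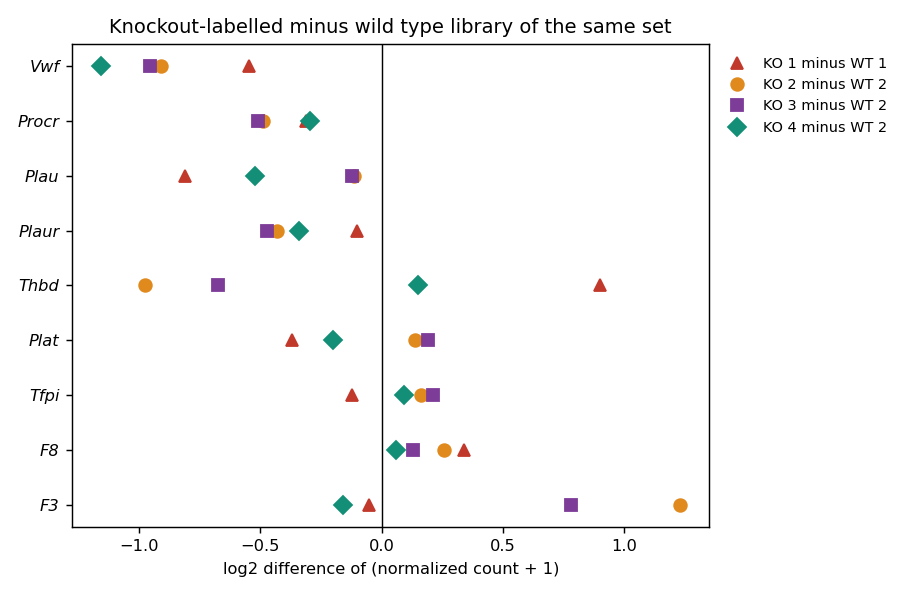
Log2 difference of normalized count + 1 (x axis) between each knockout-labelled library and the wild type library of its set, 1 point per knockout library, for each of the 9 genes (y axis). All 4 points lie left of 0 for Vwf, Procr, Plau and Plaur and right of 0 for F8, while F3 spans −0.16 to 1.23 and Thbd −0.98 to 0.90.

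Vwf (chromosome 6, 125546774 to 125686679, plus strand), which encodes the platelet tether of endothelial storage granules, had the largest fitted difference of these 4 once library set was a term. It had 2939, 971, 942 and 819 normalized counts in knockout 1 to 4, against 4293 and 1825 in wild type 1 and 2. Each knockout library was below the wild type of its set, though knockout 1 was above wild type 2, so the pooled groups overlapped. The means were 1418 ± 1016 (SD, n = 4) in knockout and 3059 ± 1745 (SD, n = 2) in wild type libraries. The log2 difference was −1.20 ± 0.61 with genotype alone (SE; 95% interval −2.71 to 0.31; limma adjusted p = 1.00) and −0.82 ± 0.14 with a term for library set (SE; −1.16 to −0.48; limma adjusted p = 0.999). DESeq2 with that term gave −0.82 ± 0.17 (SE, adjusted p = 0.00123), and edgeR an adjusted p of 0.909. With that term Vwf thus fell by the test of 1 of 3 tools.

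Endothelial markers did not follow Vwf evenly. Vwf was lower than wild type of the set by log2 differences of −0.55, −0.91, −0.95 and −1.16 in knockout 1 to 4. The median of the 12 endothelial markers was −0.73, 0.22, −0.08 and −0.60 in the same libraries. Like Vwf, 3 of the 12, Kdr, Emcn and Egfl7, were below the wild type of the set in all 4, against 10.8% of all tested genes. With a term for library set these 3 differed by log2 −0.52, −0.51 and −0.51 (limma adjusted p = 0.999 for each). In knockout 2, 3 and 4 all 12 markers differed by less than Vwf, whereas in knockout 1 only 2 of the 12 did. The junction gene Cdh5 is a plain yardstick: Vwf counts were 8.79%, 4.36%, 4.96% and 6.23% of those of Cdh5 in knockout 1 to 4, against 6.91% and 9.79% in wild type 1 and 2. By this ratio knockout 1 lay above wild type 1 and the other 3 below wild type 2. Platelets and megakaryocytes are the other known source of Vwf, and their 7 markers summed to 144 to 863 counts in knockout libraries, against 147.6 and 386 in wild type 1 and 2. In the second set most of that sum was Pf4, which had 20.5, 422, 751 and 348 counts in knockout 1 to 4, against 18.8 and 287 in wild type 1 and 2, above the wild type of its set in all 4. Ppbp, at 3.65 to 34.3 counts in knockout libraries, against 8.38 and 1.15, was also above it in all 4. Itga2b had 106, 76.6, 76.3 and 74.7 counts in knockout 1 to 4, against 112 and 96.8 in wild type 1 and 2, below the wild type of its set in all 4. Gp9 had 0 to 5.14 counts in knockout libraries, against 8.38 and 0, Treml1 had at most 1.01 in any library, and Gp6 was at 0 in all. The part of these markers in the Vwf values was not tested.

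Of the genes of Vwf partners and storage granules, Selp, Mmrn1 and Rab27a were also lower within their set, in values that did not pass the test. Selp, which encodes P-selectin, stored beside Vwf in endothelial granules, had 8876, 3094, 3627 and 2082 counts in knockout 1 to 4, against 13114 and 4470 in wild type 1 and 2. It was lower in all 4 within its set, with a log2 difference of −0.61 ± 0.23 with a term for library set (SE, limma adjusted p = 0.999). The ratio of Vwf to Selp per kb was 0.129, 0.122, 0.101 and 0.153 in knockout 1 to 4, against 0.127 and 0.159 in wild type 1 and 2, with knockout and wild type libraries overlapping. Selp, whose exons overlap annotated genes on the other strand, and this ratio were chosen after their values were seen. Mmrn1, which encodes multimerin-1 and is also a lymphatic marker, had 10944, 5240, 3847 and 3763 counts in knockout 1 to 4, against 14861 and 12264 in wild type. Every knockout library was below both wild type libraries; the log2 difference was −1.33 ± 0.46 (SE, limma adjusted p = 1.00), and DESeq2 with a term for library set gave an adjusted p of 0.0667. Of the 6 lymphatic markers, Prox1, Lyve1, Flt4 and Reln were also lower within their set in all 4 knockout libraries, Pdpn was lower in 3 and higher in knockout 1, by log2 0.12, and Ccl21a was at 0 in every library. Flt4 had 10272, 5307, 4404 and 3648 counts in knockout 1 to 4, against 16041 and 10497 in wild type 1 and 2. Reln had 4787, 1276, 1176 and 1506 counts in knockout 1 to 4, against 7074 and 4712 in wild type 1 and 2. By the DESeq2 fit that called Vwf, Flt4 fell as well, by 1.01 ± 0.23 on the log2 scale (SE, adjusted p = 0.00809). Reln fell by 1.36 ± 0.32 in that fit (SE, adjusted p = 0.0109), where Vwf fell by 0.82 ± 0.17 (SE). Whether these differences differ from each other was not tested. Prox1 and Lyve1 had adjusted p of 0.533 and 0.138 in DESeq2, and limma and edgeR with that term called none of the 4. Their part in the Mmrn1 and Vwf values was not tested.

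**Figure D3:**
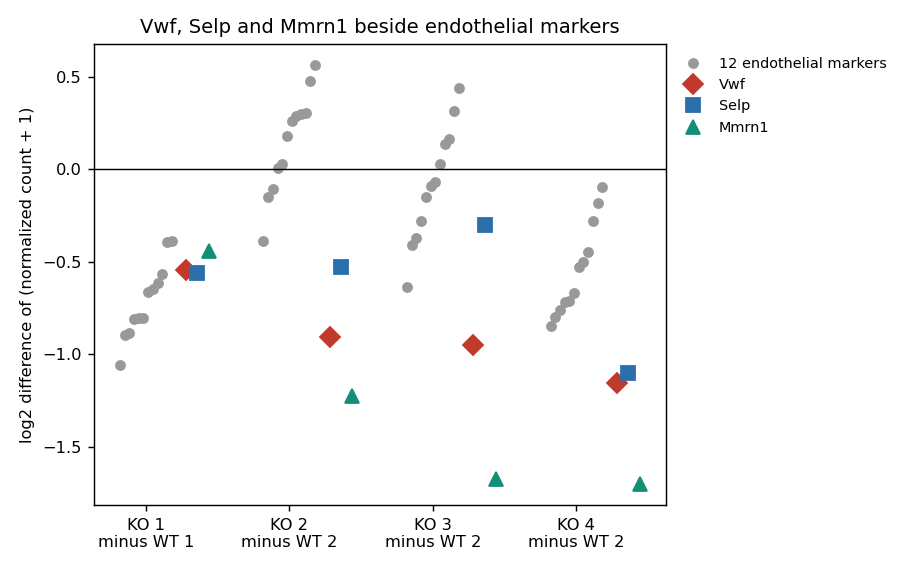
Log2 difference of normalized count + 1 (y axis) between each knockout-labelled library and the wild type library of its set (x axis), for 12 endothelial markers (grey, sorted), Vwf, Selp and Mmrn1. Vwf lies below all 12 markers in knockout 2, 3 and 4 and among them in knockout 1.

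By likeness over the 6 libraries, after the mean of each library set was subtracted, Ece1, the endothelin-converting enzyme gene, followed Vwf most closely (r = 0.998), with Ccnjl (r = 0.997) and the scavenger receptor gene Stab1 (r = 0.995) next. These values are the highest among 12037 genes over 6 points of only 2 sets and are a description without a test. For the other 8 genes the 3 closest also had r of 0.993 to 1.00, which shows how readily so few points give a high r, and they are not named.

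F8 (chromosome X, 75172715 to 75382615, minus strand), the gene of factor VIII, which circulates bound to Vwf, did not go with Vwf. It had 183, 102, 93.5 and 88.8 counts in knockout 1 to 4, against 144 and 85.3 in wild type 1 and 2. It was above the wild type of its set in all 4 knockout libraries, by log2 differences of 0.06 to 0.34. Limma gave a log2 difference of 0.01 ± 0.40 with genotype alone and 0.22 ± 0.17 with a term for library set (SE; 95% interval −0.19 to 0.64; limma adjusted p = 0.999).

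The coagulation starter F3 (chromosome 3, 121723537 to 121735048, plus strand) varied between knockout libraries more than between genotypes. It had 8405, 10709, 7827 and 4081 counts in knockout 1 to 4, against 8711 and 4561 in wild type 1 and 2. Knockout 2 and 3 were above wild type 2, while knockout 1 and 4 were slightly below the wild type of their set. By limma it differed by log2 0.22 ± 0.44 (SE; 95% interval −0.87 to 1.30; limma adjusted p = 1.00), and 0.35 ± 0.415 with a term for library set.

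Tfpi (chromosome 2, 84432855 to 84476775, minus strand), the gene of the inhibitor of the tissue factor complex, was the most even of the 9. It had 8309, 7008, 7241 and 6673 counts in knockout 1 to 4, against 9045 and 6257 in wild type 1 and 2. Its log2 difference was −0.05 ± 0.18 with genotype alone (SE; 95% interval −0.49 to 0.40) and 0.04 ± 0.09 with a term for library set (SE; −0.18 to 0.27; limma adjusted p = 0.999), so changes beyond these intervals were not seen, while smaller ones cannot be resolved by 6 libraries.

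Thbd (chromosome 2, 148404466 to 148408188, minus strand; 1 exon), the thrombin receptor of the protein C pathway, had 36940, 6560, 8090 and 14302 counts in knockout 1 to 4, against 19796 and 12898 in wild type 1 and 2. Knockout 1 was the highest of all libraries and knockout 2 the lowest. Its log2 difference was −0.30 ± 0.71 with genotype alone and 0.06 ± 0.44 with a term for library set (SE; 95% interval −1.04 to 1.16; limma adjusted p = 0.999). The genotype difference was 1.40 ± 0.74 lower on the log2 scale in the second set than in the first (SE; limma interaction adjusted p = 0.999), and 0 of the 9 genes passed this interaction test, as 0% of all tested genes did. Mesothelial markers, from cells that also express Thbd, summed to 79828, 14143, 9762 and 18595 in knockout 1 to 4, against 35624 and 19107 in wild type 1 and 2. They were highest in the library where Thbd was highest, and their part was not tested.

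The ratio of the anticoagulant Thbd to the procoagulant F3 differed widely among knockout cultures. Per kb it was 2.21, 0.308, 0.520 and 1.76 in knockout 1 to 4, against 1.14 and 1.42 in wild type 1 and 2. The mean ratio was 1.20 ± 0.93 (SD, n = 4) in knockout and 1.28 ± 0.20 (SD, n = 2) in wild type libraries, so knockout libraries lay on both sides of wild type. This ratio was chosen after the values were seen and was not tested.

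Procr (chromosome 2, 155751117 to 155755471, plus strand), the receptor that presents protein C to thrombin and thrombomodulin, had 11183, 1216, 1199 and 1391 counts in knockout 1 to 4, against 13873 and 1709 in wild type 1 and 2. Every knockout library was lower than the wild type of its set, by log2 differences of −0.30 to −0.51, a narrow range beside the gap between the sets. With a term for library set the log2 difference was −0.38 ± 0.09 (SE; 95% interval −0.61 to −0.16; limma adjusted p = 0.999; DESeq2 adjusted p = 0.227). With genotype alone it was −1.16 ± 1.23 (SE, limma adjusted p = 1.00).

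Plaur (chromosome 7, 24462484 to 24475968, plus strand), the receptor that localizes urokinase, followed Procr. It had 5622, 1952, 1897 and 2075 counts in knockout 1 to 4, against 6032 and 2629 in wild type 1 and 2. Each knockout library was again below the wild type of its set, by −0.10 to −0.47. The log2 difference was −0.29 ± 0.09 with a term for library set (SE; 95% interval −0.53 to −0.05; limma adjusted p = 0.999) and −0.64 ± 0.56 with genotype alone. After the mean of each set was subtracted, Procr and Plaur had r = 0.941 over the 6 libraries, the highest of the 36 pairs of these genes, a description without a test.

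Of the plasminogen activators, Plau was below the wild type of its set in all 4 knockout libraries and Plat was not. Plau (chromosome 14, 20836660 to 20843385, plus strand) had 7029, 2469, 2452 and 1858 counts in knockout 1 to 4, against 12312 and 2669 in wild type 1 and 2. Its largest within-set difference was in knockout 1, at log2 −0.81, and its smallest in knockout 2, at −0.11. The log2 difference was −0.47 ± 0.18 with a term for library set (SE; 95% interval −0.93 to −0.02; limma adjusted p = 0.999) and −0.94 ± 0.76 with genotype alone.

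Plat (chromosome 8, 22757727 to 22782844, plus strand) had 4485, 2948, 3054 and 2329 counts in knockout 1 to 4, against 5800 and 2679 in wild type 1 and 2. Knockout 1 and 4 were below the wild type of their set and knockout 2 and 3 above it. The log2 difference was −0.34 ± 0.38 with genotype alone and −0.12 ± 0.16 with a term for library set (SE; 95% interval −0.51 to 0.27; limma adjusted p = 0.999). The ratio of Plau to Plat per kb was 1.69, 0.903, 0.866 and 0.860 in knockout 1 to 4, against 2.29 and 1.07 in wild type 1 and 2, and so was lower than in the wild type of the set in all 4. This ratio too was chosen after the values were seen and was not tested.

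**Figure D4:**
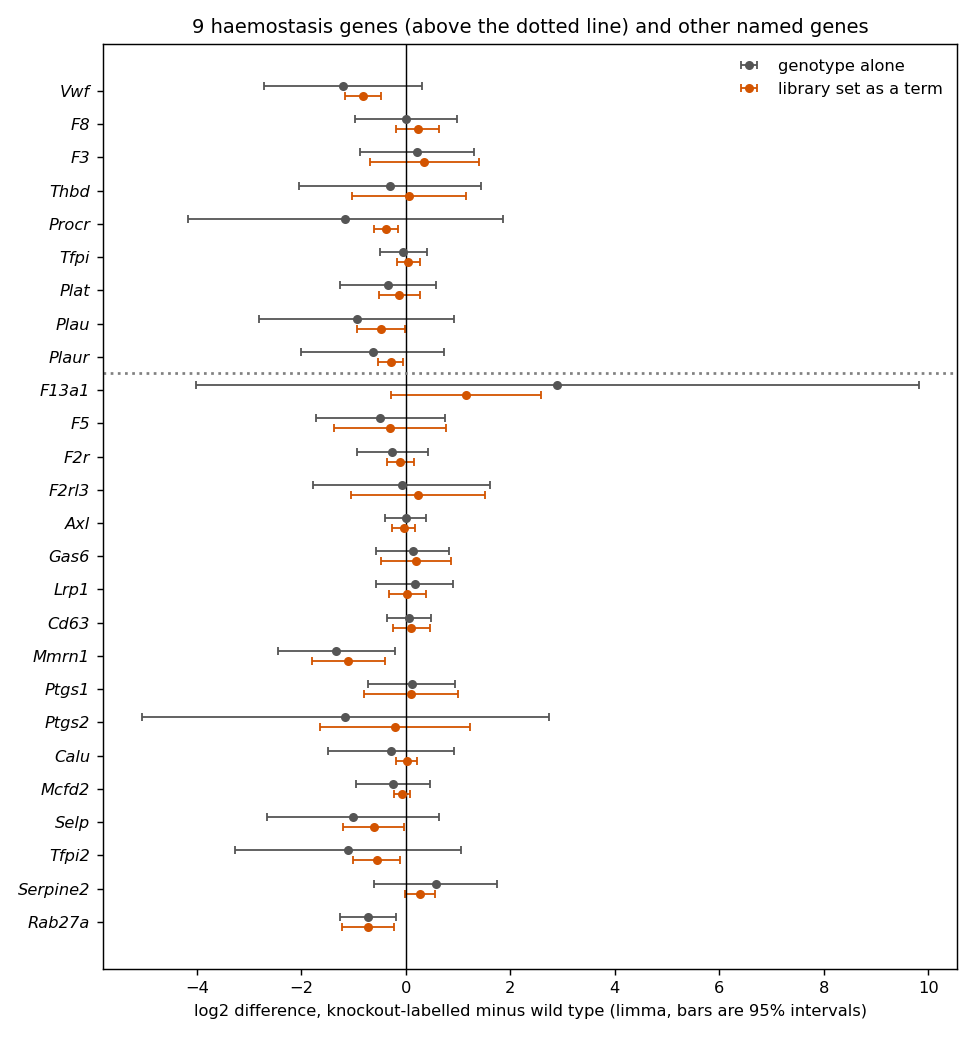
Log2 difference between knockout-labelled and wild type libraries (x axis) with 95% intervals from limma, with genotype alone (grey) and with a term for library set (orange), for the 9 genes above the dotted line and 17 other named genes below it. The grey intervals cross 0 for all 9 genes; the orange ones lie below 0 for Vwf, Procr, Plau and Plaur, none of which passed in limma after adjustment over all genes.

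Of 64 other haemostasis genes, in 7 lists by role, 42 passed the filter, and limma with genotype alone called 0 of them in either direction. DESeq2 with a term for library set also called 0 of the 42. Their median log2 difference was −0.08 with genotype alone and 0.03 with a term for library set, against 0.00 and 0.00 over all genes tested. The 9 genes had medians of −0.34 and −0.12. Within their set, 7 of the 42 were lower in all 4 knockout libraries, against 10.8% of all tested genes, and 3 were higher in all 4, against 10.1%. The 7 were Selp, Rab27a, Mmrn1, F2rl1, Tfpi2, Vkorc1l1 and Mcfd2, and the 3 were Serpine2, A2m and Vkorc1. Of these, Mmrn1 and Mcfd2 come from the rule for named genes, and the others were named after their values were seen.

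Of the 14 coagulation factor and fibrinogen genes, most of which are known as liver products, 10 did not pass the filter, and F2, F9 and Fgb were at 0 in every library. F13a1, the factor XIII A subunit gene that macrophages are known to express, had 78.1, 4899, 6610 and 3961 counts in knockout 1 to 4, against 11.5 and 4549 in wild type 1 and 2. It followed the library sets, as did the sum of macrophage and leukocyte markers. That sum was 4229, 34488, 47173 and 28965 in knockout 1 to 4, against 5219 and 34368 in wild type 1 and 2. The marker Cd14 did not follow the sets, with 2820, 2112, 2592 and 1498 counts in knockout 1 to 4, against 3559 and 4672. Within the first set, F13a1 was higher in knockout 1 than in wild type 1, while the marker sum was lower. Most of that sum was Cd14 in both libraries, and single markers went both ways. Adgre1 (33.9 against 9.42), Marco (33.9 against 15.7), Itgam (10.3 against 4.19) and Ptprc (10.3 against 5.23) were higher in knockout 1, as F13a1 was. Lyz2, Cd68, Csf1r, Mrc1, Chil3 and Cd14 were lower. F5, the gene of factor V, had 43.8 to 117 counts in knockout libraries, against 170 and 86.4 in wild type 1 and 2. Of the 4 thrombin and protease receptor genes, F2r was the most abundant, with 15335 to 25136 counts in knockout libraries, against 26947 and 17527 in wild type, and F2rl3 had 68.6 to 167, against 289 and 59.9. Neither passed the test in limma. Exons of F13a1, F5, Gas6, Calu and Ptgs1 also overlap other annotated genes, so their counts are less certain.

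In the list named for anticoagulant proteins, 7 of 12 genes passed the filter. The list also took in the vitamin K-dependent ligand Gas6 and its receptor Axl. Their place in it does not mean that they restrain clotting. Axl differed by log2 0.00 ± 0.16 and Gas6 by 0.13 ± 0.29 (SE, limma, genotype alone). Tfpi2, a Kunitz inhibitor gene related to Tfpi, had 1797, 401, 479 and 521 counts in knockout 1 to 4, against 3360 and 585 in wild type 1 and 2, a log2 difference of −0.56 ± 0.18 with a term for library set (SE, limma adjusted p = 0.999). Tfpi2 thus lay below the wild type of its set in all 4 knockout libraries where Tfpi did not, a contrast that was not tested.

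Among inhibitors of fibrinolysis and genes of the plasmin pathway, 8 of 11 passed the filter. Serpine2, which encodes protease nexin-1, an inhibitor of thrombin and urokinase, had 4860, 11059, 11171 and 9057 counts in knockout 1 to 4, against 3712 and 9029 in wild type 1 and 2. It was thus higher than the wild type of its set in all 4, by 0.28 ± 0.12 with a term for library set (SE, limma adjusted p = 0.999). Lrp1, the receptor that clears complexes of protease and inhibitor, differed by 0.17 ± 0.30 with genotype alone (log2, SE, limma adjusted p = 1.00).

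In the list of Vwf partners and storage granules, 7 of 11 genes passed the filter, and in 2, Rab27a and Mmrn1, all 4 knockout libraries were below both wild type libraries, as they were in 2.32% of all tested genes. Rab27a, whose product sits on Vwf storage granules, had 143, 124, 140 and 181 counts in knockout 1 to 4, against 240 and 240 in wild type. In limma it differed by log2 −0.72 ± 0.22 (SE; 95% interval −1.25 to −0.18; limma adjusted p = 1.00), and −0.72 ± 0.20 with a term for library set. An exon of Rab27a overlaps the annotated gene Gm27186 on the same strand, so some reads may be shared or lost. Cd63, a membrane protein gene of the same granules, differed by 0.06 ± 0.17 with genotype alone. Of the genes by which endothelium restrains platelets, the prostanoid synthesis genes Ptgs1 and Ptgs2 differed by 0.11 ± 0.34 and −1.16 ± 1.59 (log2, SE). In the vitamin K and export list, Calu differed by −0.28 ± 0.49, and Mcfd2, a cofactor gene for the export of factors V and VIII, by −0.24 ± 0.29 (log2, SE), and 0 of its 6 genes passed in limma.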

How the data were processed

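Poly(A)-selected RNA of 4 knockout and 2 wild type cultures was sequenced as single-end reads, per the labels' protocols. The deposited table holds normalized counts, a signal made by the authors from read counts scaled by a library's size factor. The submitters' processing notes name Trimmomatic 0.36, STAR 2.6.0c and featureCounts of Subread 1.6.1, and the build GRCm38.p6. The series design text instead names Trimmomatic 0.32, STAR 2.4.2a, HTSeq and DESeq2 1.10.1; which of them made the table is not given in these sources, nor is the use of strand. Every value (100% in each library, within 1e-06 of a read) was a whole multiple of its library's smallest, so whole reads were recovered for the count tests.

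Libraries were compared mainly by limma 3.58.1 (R 4.3.3) on log2(normalized count + 1), a scale that understates changes of low genes, over 15229 genes whose mean reached 10, with Benjamini-Hochberg adjustment over all of them and a threshold of 0.05. Alternatives were edgeR 4.0.16 and DESeq2 1.42.0 on recovered reads, the library set as a term, the second set alone, the title number as a block, other pseudocounts, filters and TMM scaling, and each library left out in turn. The fits were tested on simulated data, with means taken from the library sets and dispersion from the design with library set. The outcome is not given here and backs no call. Positions and lengths come from GENCODE M21 on GRCm38, promoters from RefSeq.

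The 9 genes and the lists were chosen with earlier results of these data known, and so was the library set. Genes were named by a rule: the 9, Zmpste24, the 2 most abundant and any called gene of each of the 7 other lists, and for each of the 9 the 3 most alike genes, of which those of Vwf alone are named. Others were named after their values were seen. A gene that the rule names is counted in its list but not reported here.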

Additional observations from a re-analysis of the deposited data

Results flagged for a closer look

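A library far from the other 3 of the knockout group was found in 13 of 38 quantities checked, and in all 13 it was knockout 1, the only knockout library of the first set. Chance alone flags about 5% of independent groups. That rate is no yardstick for these 13. The library sets already part knockout 1 from the other 3, and some quantities share genes. Vwf had 2939 normalized counts in knockout 1, against 819 to 971 in knockout 2, 3 and 4. F8 had 183, against 88.8 to 102 in the other 3, Procr 11183, against 1199 to 1391, Plau 7029, against 1858 to 2469, and Plaur 5622, against 1897 to 2075. Among the other named genes, the counts in knockout 1 were 5079 for Zmpste24, 30467 for Ptgs2, 69538 for Calu, 11246 for Mcfd2 and 1797 for Tfpi2, all above those of the other 3 knockout libraries. The ratio of Plau to Plat per kb was 1.69 in knockout 1, against 0.860 to 0.903. Summed markers stood apart in the same way, at 79828 for mesothelial and 43721 for lymphatic endothelial genes, against 9762 to 18595 and 20220 to 23906 in the other 3.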

How the results depend on the processing

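The count of the 9 genes called was 0 by limma with genotype alone and 0 under every alternative but DESeq2 with a term for library set, which called 1, Vwf (limma without 1 library in turn, 0 to 0; the DESeq2 call was not recomputed without single libraries). The wider list stayed at 0 called under all alternatives run. Vwf lay below 0 under all 18 alternatives. With the title number as a block (replicate block) 0 genes passed; same-numbered libraries deviated together (r = 0.841 and 0.562 across genes), but only 2 numbers are shared and they do not pair the libraries by design. In alternatives chosen after seeing the data, TMM left 4 genes lower and 1 higher than the wild type of the set in all 4 knockout libraries, and the second set alone left 4 lower and 2 higher. Directions of genes that did not pass turned as follows (log2). Thbd was 0.022 by edgeR, 0.012 by DESeq2, and, given a term for library set, 0.060, 0.084 and 0.077 by limma, edgeR and DESeq2. With that term in the same 3 tools, Tfpi was 0.044, 0.050 and 0.044, F2rl3 0.23, 0.20 and 0.22, Axl −0.036, −0.029 and −0.035, and Calu 0.013, 0.020 and 0.014; DESeq2 with genotype alone gave −0.0053 for Axl. In the second set alone Tfpi was 0.16, Plat 0.042, F2rl3 0.90, Axl −0.080, Gas6 −0.26, Ptgs1 −0.36 and Calu 0.033. With the block Tfpi was 0.021, F2rl3 0.28, Axl −0.049 and Calu 0.021. Leaving out 1 library in turn gave ranges of −0.37 to 0.38 for F8, −0.25 to 0.68 for F3, −0.81 to 0.022 for Thbd, −2.67 to 0.35 for Procr, −0.31 to 0.22 for Tfpi, −0.90 to 0.22 for Plat and −2.05 to 0.16 for Plau. Those of Vwf, −1.82 to −0.58, and Plaur, −1.23 to −0.04, did not cross 0. The ranges were −1.35 to 7.16 for F13a1, −0.57 to 0.052 for F2r, −1.21 to 1.04 for F2rl3, −0.10 to 0.10 for Axl, −0.082 to 0.34 for Gas6 and −0.028 to 0.36 for Lrp1. They were −0.054 to 0.18 for Cd63, −0.25 to 0.47 for Ptgs1, −2.70 to 0.38 for Ptgs2, −0.90 to 0.33 for Calu, −0.58 to 0.088 for Mcfd2, −2.36 to 0.15 for Tfpi2 and −0.072 to 1.21 for Serpine2. Where wild type 1 or 2 is left out, the lone wild type library is assumed to vary like the knockout ones. The causes of these turns were not tested. F8, with 74 reads in its lowest library, is the gene most limited by depth.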
